A study of Mus musculus with 8 samples.

Results

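The 2 knockdown lines of one study of fat cell formation were set directly against each other before differentiation began. The cells are 3T3-L1, a mouse embryonic fibroblast line that behaves as a preadipocyte and turns into fat cells under a hormone cocktail. Library shMaf1, from cells carrying a short hairpin RNA against Maf1, was compared with library shBrf1, from cells carrying a short hairpin RNA against Brf1. Both were collected at day 0, after growth to confluence and before any cocktail. All 31252 genes of the deposited tables were joined by gene name, and 12316 of them reached 1 CPM, the scaled count of a gene per 1000000 counts of its library, in either library. No control library enters the ratio. The study holds 8 libraries, 1 for each of 4 conditions on 2 days. The other conditions are control cells with an empty shRNA vector and cells given ML-60218, a compound that blocks RNA polymerase III. Day 2 libraries followed 2 days with ascorbic acid (25 µg/mL), dexamethasone (2 µM), insulin (10 µg/mL) and IBMX (0.5 mM, a phosphodiesterase inhibitor). The labels do not say whether a knockdown line is a clone or a pool, and give neither the dose of ML-60218 nor the shRNA sequences.

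RNA polymerase III makes tRNAs, the small ribosomal RNA and other short transcripts. Maf1 encodes its main repressor, which holds the polymerase back when nutrients or growth factors are scarce. Brf1 encodes a subunit of TFIIIB, the initiation factor that brings the polymerase to tRNA genes. Loss of Maf1 is known to raise transcription by the polymerase and loss of Brf1 to limit it, so the comparison sets opposite perturbations of the same machine side by side. The libraries were made from polyadenylated RNA, so the products of the polymerase themselves are not read: of 9 listed transcripts 3 have a row in the tables, and none of these reached a mean of 1 CPM.

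With 1 library on each side there is no replicate spread and no test. A gene is called higher or lower here when its log2 ratio, shMaf1 to shBrf1, is at least 1 in size and its higher value is at least 1 CPM. Fold differences carry 95% exact conditional binomial intervals, which cover counting error at most. Differences between cultures, between lines and between hairpins cannot be told apart. The day 0 libraries hold 30292041 counts in shMaf1 and 31759559 in shBrf1. Their 3′ bias scores were 0.11 and 0.07, and ribosomal RNA took 0.46% and 0.56% of reads. Fibroblast markers were all measured, 13 of 13, with a summed level of 27176 CPM in shMaf1 and 35230 CPM in shBrf1. Macrophage markers summed to 17.4 and 35.6 CPM, of which Lyz2, a gene in the chromosome 10 region described further on, gave 7.72 and 23.4 CPM, and Ptprc, Tyrobp and Fcgr3 were at 0 in both. Endothelial markers summed to 3.67 and 2.92 CPM, and epithelial markers to 1.09 and 0.42 CPM, with Epcam at 0. The skeletal muscle list summed to 8.53 and 9.27 CPM with Myod1 and Myog at 0. Bone, cartilage and tendon markers stood higher, at 156.8 CPM in shMaf1, 142.6 in shBrf1 and 129.7 in control. Of these, Runx2 gave 42.9 and 55.3 CPM and Sox9 65.0 and 50.75 CPM in shMaf1 and shBrf1.

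Each targeted gene was lowest in its own line. Maf1 (chr15:76351294-76354378, mm10) stood at 13.1 CPM in shMaf1, 61.0 in shBrf1, 55.8 in control and 54.9 in ML-60218. It was 4.65-fold lower in shMaf1 than in shBrf1 (4.19 to 5.18). Brf1 (chr12:112959862-113000621, mm10) stood at 18.98 CPM in shBrf1, 29.9 in shMaf1, 32.9 in control and 33.2 in ML-60218. The 1.58-fold difference (1.42 to 1.75) fell short of the size rule, so within this pair the target mRNA of shBrf1 was lowered less than that of shMaf1. The rest of the polymerase III machinery was near level: of 36 measured subunits and factors, 1 was lower (Maf1) and 0 were higher, with a median log2 ratio of -0.06. Gtf3c1, the largest subunit of TFIIIC, was 1.52-fold lower in shMaf1 (1.45 to 1.59), and Polr2l, a small subunit shared by the nuclear polymerases, 1.49-fold lower (1.31 to 1.70). Cytosolic aminoacyl-tRNA synthetases, which charge tRNAs, had a median of 0.11 over 23 genes, and tRNA processing enzymes 0.14 over 36, with 0 called in either list. Mettl1, a tRNA methyltransferase, was 1.69-fold higher in shMaf1 (1.44 to 1.99), the farthest of the latter.

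Across all genes, 406 of 12316 (3.3%) were higher in shMaf1 and 293 (2.38%) were lower, 5.68% in all. Among the 12138 genes with a mean of at least 1 CPM over the pair, the reference for the gene lists, 3.11% were higher, 2.22% were lower and the median log2 ratio was 0.00.

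**Figure D1:**
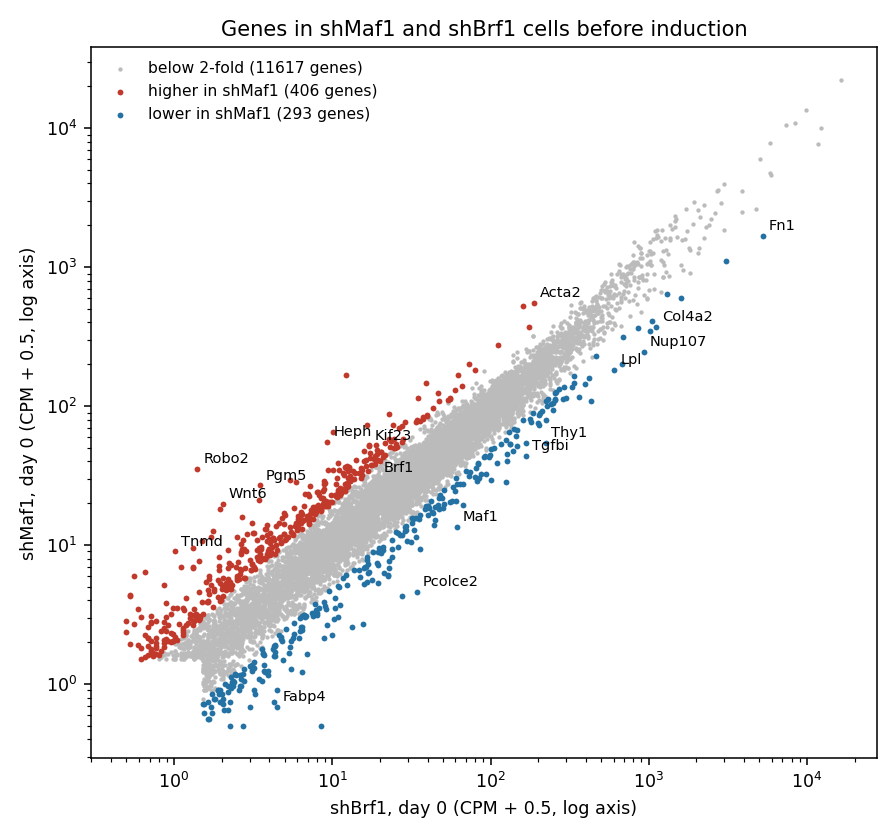
Level of each gene in shBrf1 (horizontal) and shMaf1 (vertical) at day 0, as CPM plus 0.5 on log axes, for the 12316 genes that reach 1 CPM in either library. Each point is a gene; 406 lie above the size rule, with Robo2 and Wnt6 farthest out among the labelled ones, and 293 lie below it, with Fabp4 and Pcolce2 farthest out.

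The broadest difference was in the cell division genes. All 38 mitotic genes measured had a ratio above 0; 25 were called higher in shMaf1 (background 3.11%) and 0 lower, with a median log2 ratio of 1.20. Their summed level was 1756 CPM in shMaf1 against 782 in shBrf1, 695 in control and 708 in ML-60218, so shMaf1 was the library that stood away. The genes for DNA replication and S phase followed with a smaller difference: 45 of 46 were above 0, 12 were higher, 0 were lower and the median was 0.65. Kif23, a kinesin of the central spindle, stood at 51.7 CPM in shMaf1, 16.5 in shBrf1, 15.9 in control and 14.99 in ML-60218, which is 3.14-fold higher in shMaf1 than in shBrf1 (2.85 to 3.47). Nusap1, a spindle microtubule protein, stood at 47.3, 15.3, 13.5 and 13.2 CPM in the same order. Ube2c, the ubiquitin-conjugating enzyme of the anaphase-promoting complex, stood at 40.7, 13.6, 12.3 and 11.9 CPM. In all of these shMaf1 was about as far above the control as above shBrf1. Ccnb2, a mitotic B-type cyclin, stood at 35.4, 11.8, 9.87 and 9.90 CPM. Among replication genes, Mcm5, a subunit of the replicative helicase, was 2.66-fold higher (2.46 to 2.88), Ccna2, the S phase cyclin A, 2.62-fold (2.42 to 2.83) and E2f2, an activating E2F factor, 4.07-fold (2.28 to 7.73).

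The promoters of mitotic genes are shown because many genes of the list share letters in them. The shares are over listed genes whatever their ratio, so they say nothing of the difference between the lines. TTTGAA is the core of the cell cycle genes homology region (CHR), the element through which the DREAM and MuvB complexes time mitotic genes, and CCAAT is the binding letters of NF-Y. Windows run from 250 bases before to 50 after the RefSeq gene start (GRCm38.p6), and both strands were searched. Of 38 listed mitotic genes, 32 had a window, and 24 of these (75.0%) held TTTGAA in either direction, against 20.2% of all 27025 genes with a window. CCAAT was in 27 of 32 (84.4%) against 41.1% of all genes. The replication list held TTTGAA in 6 of 36 (16.7%) and CCAAT in 23 of 36 (63.9%). Below are the windows of the named mitotic genes, 5′ to 3′ on the gene's strand, with both motifs in capitals wherever they occur on either strand; on the opposite strand the first reads TTCAAA. There the second reads ATTGG. Kif23 is at chr9:61946750-61947049 on the minus strand, Ube2c at chr2:164769679-164769978 on the plus strand and Ccnb2 at chr9:70421505-70421804 on the minus strand. In Kif23 the 2 motifs lie a few bases apart, Ube2c holds 6 CCAAT matches, a pair of them overlapping, and Ccnb2 holds 3 matches to CCAAT with 2 to the CHR core. The window of Nusap1 held neither and is not printed.
Kif23: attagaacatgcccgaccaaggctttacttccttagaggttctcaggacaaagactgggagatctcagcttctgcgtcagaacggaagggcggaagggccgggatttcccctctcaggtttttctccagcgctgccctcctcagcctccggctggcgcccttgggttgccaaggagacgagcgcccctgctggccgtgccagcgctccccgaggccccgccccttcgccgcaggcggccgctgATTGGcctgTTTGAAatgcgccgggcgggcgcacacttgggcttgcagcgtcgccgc
Ube2c: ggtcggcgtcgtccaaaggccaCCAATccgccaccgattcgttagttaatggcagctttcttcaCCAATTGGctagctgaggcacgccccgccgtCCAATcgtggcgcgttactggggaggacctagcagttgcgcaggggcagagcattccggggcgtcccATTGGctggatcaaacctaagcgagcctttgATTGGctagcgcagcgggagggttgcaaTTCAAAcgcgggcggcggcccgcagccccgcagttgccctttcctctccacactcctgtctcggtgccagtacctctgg
Ccnb2: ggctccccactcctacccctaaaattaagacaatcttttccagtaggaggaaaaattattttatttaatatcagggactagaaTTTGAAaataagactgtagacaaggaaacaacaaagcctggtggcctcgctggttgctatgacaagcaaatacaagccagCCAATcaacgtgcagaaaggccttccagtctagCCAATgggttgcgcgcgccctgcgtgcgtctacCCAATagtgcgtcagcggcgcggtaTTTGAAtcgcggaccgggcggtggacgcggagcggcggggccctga
A match of letters is a description, not evidence of binding.

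The list of cell cycle regulators, which holds both activators and inhibitors, was quieter. Of 15 D cyclins, CDK inhibitors and pocket proteins, 0 were called in either direction. Cdkn1a, which encodes the CDK inhibitor p21, was 1.76-fold lower in shMaf1 (1.70 to 1.82), and Rbl1, the pocket protein p107, was 1.83-fold higher (1.64 to 2.04). Of 19 p53 targets, 0 were called. Most mRNAs of replication-dependent histones lack poly(A) tails, and 4 of 19 were measured. Whether the list as a whole moved with the S phase genes cannot be read from these libraries. The measured members did not: Hist1h2bc was 3.30-fold lower in shMaf1 (2.64 to 4.14) and Hist1h1c 2.20-fold lower (2.03 to 2.39).

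Cytosolic ribosomal protein genes shifted as a block by a smaller amount. All 49 had a ratio above 0, 0 reached the size rule, and the median was 0.40. Their summed level was 57764 CPM in shMaf1, 42452 in shBrf1, 39177 in control and 41195 in ML-60218. Rps27a, a small-subunit protein made as a fusion with ubiquitin, was 1.88-fold higher in shMaf1 (1.85 to 1.91), and Rps12 1.65-fold (1.63 to 1.68). Ribosomal protein genes have many pseudogene copies, so reads of single members may be split by the counting. These are short transcripts, and with the trend of the ratio on transcript length removed the median was 0.36. Ribosome biogenesis genes were less uniform, with a median of 0.08 over 33 and 0 called.

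Fat cell genes stood lower in shMaf1 before the cocktail was given. PPARγ and the C/EBP factors form the transcription cascade that commits these cells, and the lipid droplet, fatty acid uptake and adipokine genes are its targets. Of 18 measured adipogenic transcription factors, 1 was lower (background 2.22%) and 0 were higher, with a median of -0.28. Pparg stood at 20.6 CPM in shMaf1, 38.1 in shBrf1, 28.0 in control and 27.0 in ML-60218, 1.85-fold lower in shMaf1 (1.68 to 2.03) and within the size rule. The control lay between the knockdown lines for Pparg. Nr1h3, the oxysterol receptor LXRα, was the member called, at 3.05 against 7.70 CPM, 2.52-fold lower (1.99 to 3.22). Cebpb, an early factor of the cascade, was 1.54-fold lower (1.38 to 1.72) and Cebpd 1.65-fold lower (1.44 to 1.90). For Cebpa, at 9.81 and 11.3 CPM, the interval of 0.993 to 1.35 for the fold by which it was lower includes 1.

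Of 13 measured lipid droplet and adipokine genes, 5 were lower in shMaf1 and 0 higher, with a median of -0.51. Fabp4, the fatty acid carrier of adipocytes, stood at 0.187 CPM in shMaf1, 3.94 in shBrf1, 3.23 in control and 4.64 in ML-60218, a 21.1-fold difference (9.44 to 58.5). Lpl, the secreted lipoprotein lipase, stood at 181 CPM in shMaf1, 606 in shBrf1, 352 in control and 435 in ML-60218. Lpl was thus 3.35-fold lower in shMaf1 than in shBrf1 (3.25 to 3.45), with the control between. Cd36, a fatty acid uptake receptor, was 15.1-fold lower (7.43 to 35.7) and Plin4, a lipid droplet coat protein, 2.33-fold lower (2.22 to 2.44). Fewer cells with an adipocyte programme and less of each mRNA per cell cannot be told apart in these bulk samples. Tusc5, an adipocyte membrane protein of insulin-dependent glucose uptake, was 6.89-fold lower (5.36 to 8.96). Fatty acid and triglyceride synthesis had 1 of 19 lower, Dgat2, the diacylglycerol acyltransferase, and cholesterol synthesis and uptake 1 of 23, Hsd17b7.

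**Figure D2:**
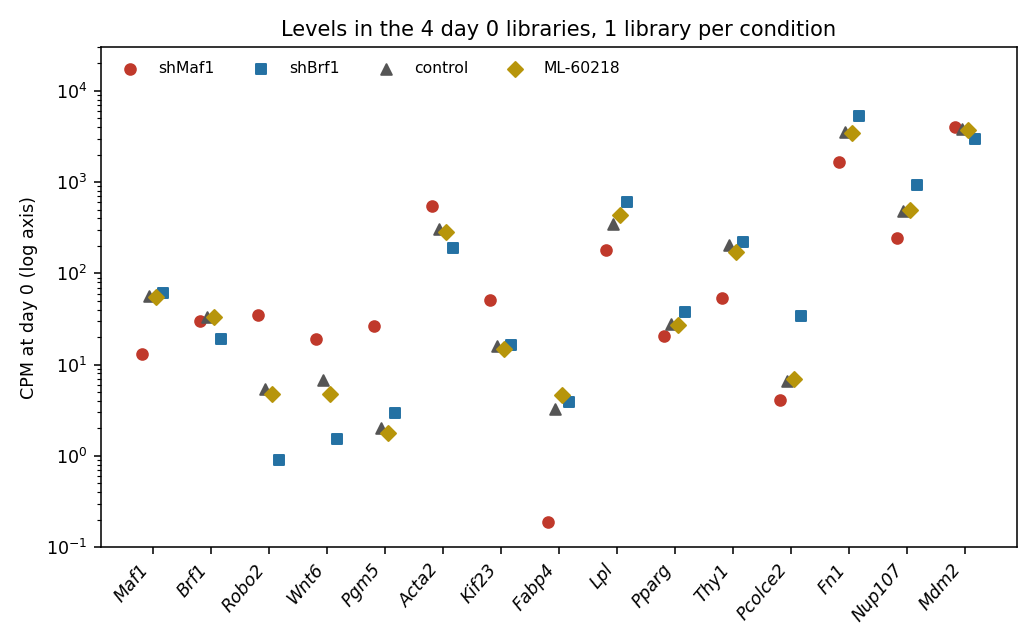
CPM of 15 genes (log axis) in the day 0 libraries of shMaf1, shBrf1, control and ML-60218, 1 point per library. For Robo2 and Wnt6 the control and ML-60218 points lie between the knockdown lines; for Maf1, Pgm5, Kif23 and Fabp4 shMaf1 is the library apart; for Pcolce2 and Brf1 it is shBrf1.

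Preadipocyte markers and inhibitors of adipogenesis were divided. Of 22, 2 were higher and 3 lower in shMaf1, and the median was 0.03. Dlk1, which encodes the soluble inhibitor of adipogenesis Pref-1, stood at 2014 CPM in shMaf1, 1363 in shBrf1, 1221 in control and 1174 in ML-60218, 1.48-fold higher in shMaf1 (1.46 to 1.496) and within the size rule. Cd34, a progenitor surface protein, was 5.46-fold higher (3.98 to 7.63), and Ly6a, the progenitor antigen Sca-1, was 2.83-fold lower (2.65 to 3.02). Thy1, a fibroblast and progenitor surface protein, stood at 54.0 CPM in shMaf1 against 222 in shBrf1, 203 in control and 171 in ML-60218. Thy1 set shMaf1 apart from the other libraries, 4.11-fold lower than shBrf1 (3.90 to 4.33).

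Wnt signalling through β-catenin holds preadipocytes undifferentiated, and Wnt6, Wnt10a and Wnt10b are ligands known for this in preadipocytes. Of 18 Wnt ligands 4 were measured, with 2 higher in shMaf1 and 0 lower. Wnt6 stood at 19.2 CPM in shMaf1, 1.53 in shBrf1, 6.81 in control and 4.76 in ML-60218. The knockdown lines lay on opposite sides of the control, 12.5-fold apart (9.42 to 17.0). Wnt4 was 2.20-fold higher in shMaf1 than in shBrf1 (1.83 to 2.66). It stood at 11.3 CPM in shMaf1, 5.145 in shBrf1, 14.6 in control and 10.6 in ML-60218, so for Wnt4 shBrf1 was the lower side. Among 18 receptors, antagonists and targets, 1 was higher and 4 lower, 9 had a ratio above 0 and the median was -0.03. Axin2, a feedback inhibitor and a standard target of the pathway, was the higher one, at 2.58 CPM in shMaf1, 0.211 in shBrf1, 0.173 in control and 0.209 in ML-60218, 12.3-fold apart (5.70 to 31.5). The lower members were receptor genes: Ror2, a receptor for Wnt5a, was 3.69-fold lower in shMaf1 (2.62 to 5.28), Fzd4 2.64-fold (2.30 to 3.03) and the co-receptor Lrp5 2.31-fold (2.21 to 2.41), with Fzd5, named after its values were seen, at a log2 ratio of -1.13.

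Axon guidance genes went both ways. Of 30 measured semaphorin, Slit and Robo genes, 4 were higher and 4 lower. Robo2, a receptor for Slit ligands, stood at 34.8 CPM in shMaf1, 0.903 in shBrf1, 5.42 in control and 4.73 in ML-60218. As with Wnt6, the lines lay on opposite sides of the control, here 38.6-fold apart (26.9 to 57.5). Its relative Robo1 stood at 22.8 CPM in shMaf1 and 6.56, 7.33 and 7.24 CPM in shBrf1, control and ML-60218, so for Robo1 shMaf1 alone was away. Sema3d was 9.54-fold higher (6.92 to 13.4) and Sema6a 5.47-fold (4.20 to 7.23).

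Other genes among the 15 highest ratios came from varied functions. Tnmd, a membrane protein of tendon and of some adipose progenitors, was 16.6-fold higher (10.2 to 28.9), and Agtr2, the type 2 angiotensin receptor, 10.3-fold (7.18 to 15.2). Dlg2, a synaptic scaffold, stood at 5.51 CPM in shMaf1 and between 0.06 and 0.21 in the other day 0 libraries. Kcnj2, an inward rectifier potassium channel, stood at 5.92 CPM against 0.15 to 0.42. Heph, a membrane ferroxidase, was 6.21-fold higher (5.48 to 7.05) and Tgm2, tissue transglutaminase, 6.97-fold (5.45 to 9.05).

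Imprinted genes, many of which act in fetal growth, had more members higher than lower in shMaf1. Of 15 measured, 5 were higher, 1 was lower, 11 had a ratio above 0 and the median was 0.56. Igf2, the fetal growth factor, stood at 114 CPM in shMaf1, 34.4 in shBrf1, 93.3 in control and 57.9 in ML-60218, so shBrf1 was the lower side. H19, the noncoding RNA of the same imprinted domain, was 6.38-fold higher at low level (3.44 to 12.9). Peg3 was 3.81-fold higher (3.58 to 4.06) and Plagl1, a zinc finger factor of the imprinted network, 3.11-fold (2.70 to 3.60). The member that was lower was Peg10, a gene derived from a retrotransposon, at a log2 ratio of -1.54; it was named after its values were seen.

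Matrix genes were lower in shMaf1 on balance, with members on both sides. Of 28 proteoglycan, glycoprotein and elastic fibre genes, 9 were lower and 5 higher, with a median of -0.58. Of 22 collagen chains, 4 were lower and 1 higher, with a median of -0.41. Fn1, fibronectin, stood at 1676 CPM in shMaf1, 5260 in shBrf1, 3554 in control and 3418 in ML-60218, with the control again between the lines. Fn1 was 3.14-fold lower (3.11 to 3.17). Col4a2, a basement membrane collagen chain, was 3.00-fold lower (2.94 to 3.07), Col6a3 2.77-fold (2.74 to 2.80) and Tgfbi 3.82-fold (3.60 to 4.05). Pcolce2, which enhances procollagen processing, stood at 33.9 CPM in shBrf1 against 4.11 in shMaf1, 6.67 in control and 6.94 in ML-60218. For Pcolce2 shBrf1 was the library apart, and the lines differed 8.25-fold (6.88 to 9.96). On the higher side, Dcn, the small proteoglycan decorin, stood at 525 CPM in shMaf1, 159 in shBrf1, 205 in control and 102 in ML-60218. Lum, lumican, was 2.17-fold higher (1.88 to 2.51) and Mfap2, a microfibril protein, 4.70-fold (3.31 to 6.83).

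The proteins that read or cut the matrix moved as follows. Of 14 integrin subunits, 3 were lower and 0 higher, among them Itga11, a collagen receptor chain, at 3.58-fold (3.04 to 4.23) and Itgav at 2.68-fold (2.57 to 2.79). Of 17 metalloproteinases and inhibitors, 3 were lower and 1 higher. Mmp13, a collagenase, was 5.54-fold lower (3.89 to 8.08) and Mmp3, stromelysin, 3.93-fold lower (3.34 to 4.66), while Mmp9, a gelatinase, was 2.05-fold higher (1.94 to 2.17). Among TGF-β and BMP genes 5 of 27 were lower and 0 higher; Tgfb1 itself was 2.41-fold lower (2.09 to 2.79) and Id1, a BMP target, 2.48-fold lower (2.23 to 2.75). Matricellular genes were split 4 to 4 among 16. Nov (CCN3) was 5.86-fold higher (4.96 to 6.96) and Ctgf (CCN2) 6.002-fold higher at low level (3.45 to 11.2), whereas Wisp2 (CCN5) was 2.88-fold lower (2.53 to 3.27).

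Smooth muscle and myofibroblast markers were higher in shMaf1 in 5 of 13 cases and lower in 0, with a median of 0.66. Acta2, smooth muscle actin, stood at 553 CPM in shMaf1, 189 in shBrf1, 305 in control and 285 in ML-60218. Myl9, a myosin light chain, stood at 87.6, 22.4, 41.7 and 35.6 CPM in the same order, and Tagln, an actin-binding protein, at 14.0, 4.12, 6.03 and 6.10 CPM. In each of these the control and ML-60218 lay between the lines. Pgm5, a muscle protein of adhesion sites, stood at 26.4 CPM in shMaf1 and between 1.77 and 2.98 CPM in the other day 0 libraries.

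Interferon and antigen presentation genes did not move together. Of 43 interferon response genes 3 were lower in shMaf1 and 0 higher, with a median of -0.26. Iigp1, an immunity-related GTPase, stood at 28.6 CPM in shMaf1, 82.1 in shBrf1, 77.4 in control and 57.7 in ML-60218. Oas1a and Oas1g, sensors of double-stranded RNA that share sequence, were 2.18-fold and 3.48-fold lower. Of 17 MHC class I genes, 16 had a ratio above 0, 2 were higher and 0 lower, with a median of 0.45. H2-K1 stood at 372 CPM in shMaf1 against 175 in shBrf1, 324 in control and 289.7 in ML-60218, so here shBrf1 was the library apart. H2-Q4, a member of the nonclassical Qa family with close paralogues, was 3.06-fold higher (2.82 to 3.32). Among 24 measured inflammatory genes, 1 was higher, the chemokine Ccl5, at 2.96-fold (2.34 to 3.76).

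The following lists each held 2 calls or fewer. Glycolysis and HIF targets had 2 of 27 lower (background 2.22%) and 0 higher. Only 5 of the 27 had a ratio above 0, and the median was -0.35. The lower members were the oxygen sensor Egln3 at 2.69-fold (2.26 to 3.22) and the collagen prolyl hydroxylase P4ha1 at 2.06-fold (1.98 to 2.15). Nuclear genes for oxidative phosphorylation had a median of 0.12 over 35 and 0 called, and NRF2 and antioxidant genes -0.15 over 20 and 0 called. ATF4 and amino acid response genes had a median of 0.01 over 26 with 1 lower, Aldh1l2, at 2.04-fold (1.96 to 2.13). Of 30 AP-1 and Egr immediate early genes 0 were called.

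**Figure D3:**
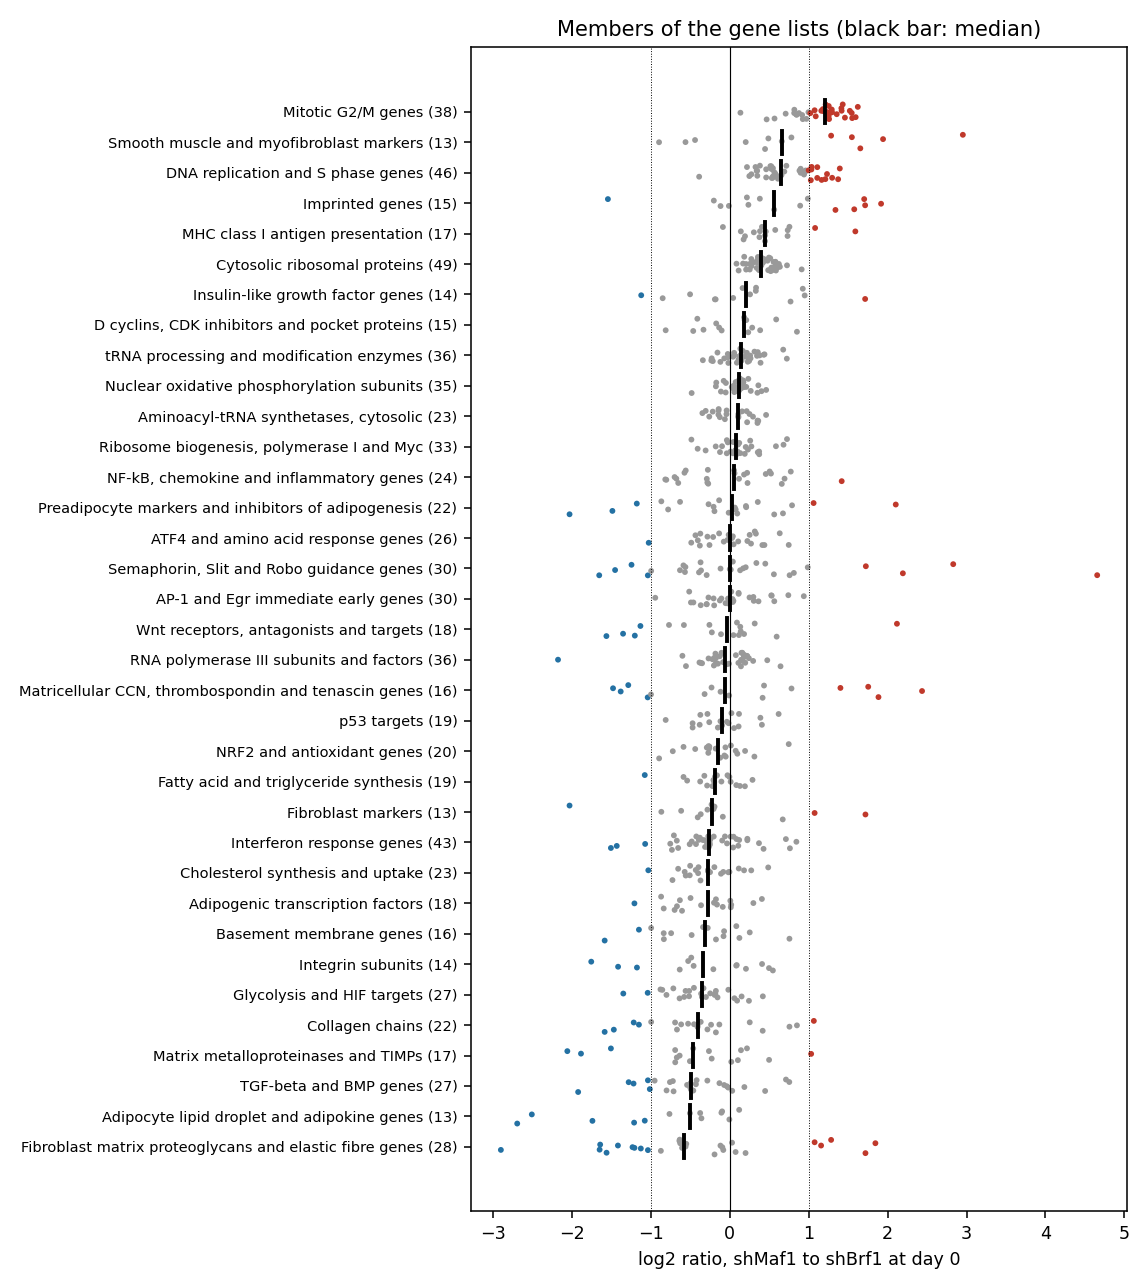
Log2 ratio of shMaf1 to shBrf1 at day 0 for each measured member of the gene lists with 10 or more measured members, with the number in brackets; red points are at 1 or more, blue at -1 or less, and the black bar is the median. Mitotic genes have the highest median (1.20) and matrix proteoglycan genes the lowest (-0.58), while ribosomal protein genes form a narrow block, all above 0.

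Some differences followed chromosome position. Around Mdm2 on chromosome 10 (chr10:117688875-117710758, mm10), 43 genes within 5 Mb were tested, of which 12 were lower in shMaf1 and 0 higher; within 0.5 Mb 7 of 10 were lower, with a median of -1.46. Nup107, a nuclear pore subunit whose start lies 61.8 kb from that of Mdm2, stood at 244 CPM in shMaf1, 929.6 in shBrf1, 485 in control and 498 in ML-60218. Yeats4, a reader of acetylated histones, stood at 109, 430.5, 195 and 211 CPM in the same order, and Cpsf6, a pre-mRNA cleavage factor, at 200.5, 677, 404 and 404 CPM. In each the lines lay on opposite sides of the control. Cct2, a chaperonin subunit, and Rap1b, a small GTPase, were 2.66-fold and 2.58-fold lower. Mdm2 itself and its neighbour Slc35e3 did not share the direction: Mdm2 stood at 3981 CPM in shMaf1, 3002 in shBrf1, 3845 in control and 3736 in ML-60218, and Slc35e3 at 1852, 1129, 1509 and 1506 CPM. Cpm, a carboxypeptidase gene on the other side of Mdm2, was near level at low values, with 1.62 and 1.53 CPM in shMaf1 and shBrf1.

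Whole chromosomes were shifted by smaller amounts. The median log2 ratio of all tested genes was -0.34 on chromosome 12 over 412 genes, -0.29 on chromosome 16 over 390, -0.19 on chromosome 1 over 683 and 0.23 on chromosome 11 over 1001. On chromosome 11, 47 genes were higher (4.7%) and 9 lower (0.899%), and on chromosome 12, 5 were higher (1.21%) and 20 lower (4.85%). Over all tested genes the shares were 3.3% and 2.38%. Uneven counts were not particular to chromosomes with a shifted median. Chromosome X had 24 higher and 5 lower at a median of 0.07, and chromosome 18 had 17 and 3 at a median of 0.00. The shift ran along the chromosome: among 10 Mb stretches with at least 20 tested genes, 9 of 9 on chromosome 12, 7 of 7 on chromosome 16 and 14 of 14 on chromosome 1 had a median below 0, and 12 of 12 on chromosome 11 above 0. Only these chromosomes were divided in this way. The stretches use the same ratios as the chromosome medians, so their signs were partly fixed in advance. At day 2 the same chromosomes had medians of -0.51 (12), -0.28 (16), -0.18 (1) and 0.29 (11). Against the control of the same day, the day 0 medians of chromosome 12 were -0.11 in shMaf1, 0.24 in shBrf1 and 0.02 in ML-60218, and those of chromosome 11 were 0.16, -0.06 and 0.00; these share the control library. DNA copy number was not measured in these files, and its part in the result was not tested. Brf1 lies on chromosome 12, where shBrf1 stood higher as a whole, and Robo1 and Robo2 lie on chromosome 16, whose median is on the other side of 0 from theirs.

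**Figure D4:**
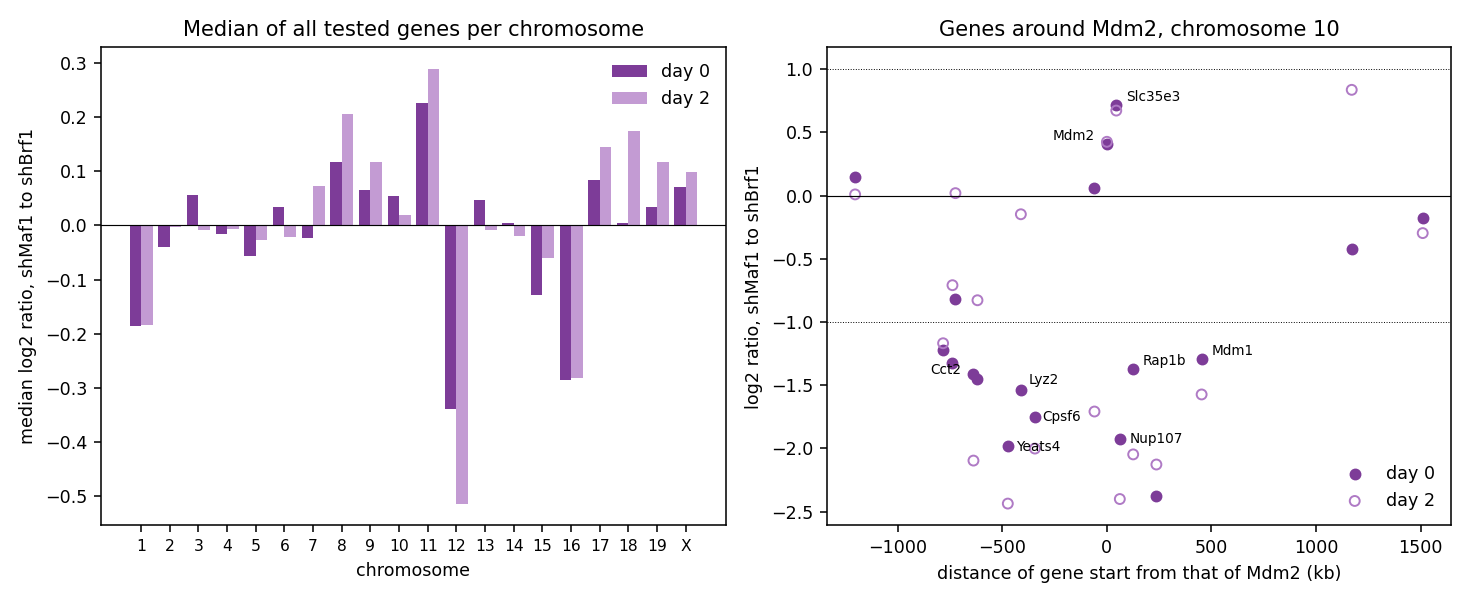
Left, median log2 ratio of shMaf1 to shBrf1 over the tested genes of each chromosome at day 0 (dark bars) and day 2 (light bars); chromosomes 12, 16 and 1 are below 0 and chromosome 11 above 0 on both days. Right, log2 ratio of each tested gene near Mdm2 against the distance between gene starts at day 0 (filled) and day 2 (open), where Mdm2, Slc35e3 and Cpm lie above 0 at day 0 and the other 7 genes within 0.5 Mb lie below -1.

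The day 2 libraries of the same lines give the pair a further look, though not a replicate, since the cells had then been induced and shBrf1 at day 2 had 7.8% ribosomal RNA reads and a 3′ bias score of 0.36. More genes differed at day 2: 12.4% were higher and 9.28% lower. Of the 406 genes higher at day 0, 360 (88.7%) had a ratio above 0 at day 2 and 206 (50.7%) were higher again, against 51.7% above 0 and 11.9% higher among all genes tested at day 0. Of the 293 lower at day 0, 239 (81.6%) were below 0 and 147 (50.2%) were lower again. Among all 12316 genes tested at day 0, 957 were lower at day 2. Median log2 ratios went from 1.28 to 1.10 for the higher genes and from -1.25 to -1.01 for the lower ones. Robo2 was at 5.25, Wnt6 at 4.87, Pgm5 at 5.72 and Nov at 6.205 at day 2, and Fabp4 at -6.50, with 8.02 CPM in shMaf1 and 769 in shBrf1. The list medians moved unequally. Adipocyte genes went from -0.51 to -3.38, smooth muscle markers from 0.66 to 2.69, imprinted genes from 0.56 to 2.38 and MHC class I genes from 0.45 to 2.17. As no other shBrf1 library was made at day 2, these values cannot be given without it, and the part of its read quality in them was not tested. Mitotic genes went from 1.20 to 0.20 and ribosomal proteins from 0.40 to 0.11. Interferon response genes went from -0.26 to 2.98.

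**Figure D5:**
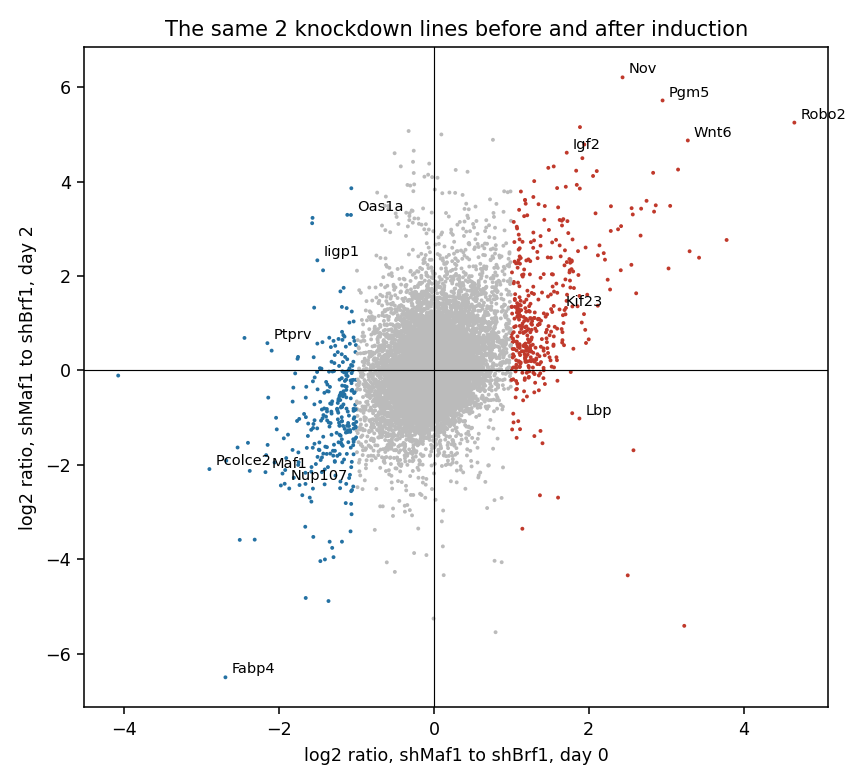
Log2 ratio of shMaf1 to shBrf1 at day 0 (horizontal) and day 2 (vertical) for the 12316 genes tested at day 0; red and blue points are the 406 and 293 genes called higher and lower at day 0. Of the red points 360 lie above 0 at day 2 and of the blue points 239 lie below it; Lbp, Iigp1 and Oas1a are among those that crossed.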

How the data were processed

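Polyadenylated RNA of 3T3-L1 cells was sequenced in stranded libraries and, per the submitters' processing notes, aligned with STAR 2.4 to mm10; the counting tool and its use of strand are not given in the sources used here, so overlapping and antisense genes are uncertain. The authors deposited expected counts (estimated counts) per gene, as whole numbers and not normalised, in 6 tables that share the control libraries. Per the file headers, the deposited quality tables give percent of reads on ribosomal RNA, a 3′ bias score, ERCC spike-in read counts and other quality values. The authors' log2 fold change served as an alternative only; their p-values were not used.

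Counts of all 8 libraries (29035505 to 31759559 each) were scaled by TMM in edgeR 4.0.16 (R 4.3.3) to CPM. Log2 ratios used a pseudocount of 0.5, which understates the change of genes with low counts. Fold intervals are exact conditional binomial (Clopper-Pearson) intervals at 95% and cover counting error at most. Duplicate reads made up 25.88% in shMaf1 and 23.5% in shBrf1 at day 0. Without molecular identifiers, copies of one molecule cannot be told from separate molecules, so the intervals may be too narrow. The scripts were tested on simulated counts. Computation used Python 3.11.15 with pandas 2.3.3, scipy 1.17.1 and matplotlib 3.10.9.

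The 43 gene lists hold members with a mean of at least 1 CPM in the 2 libraries. Named genes are the targets Brf1 and Maf1, the adipogenic genes Cebpa, Cebpb, Pparg and Fabp4, Wnt6 and Dlk1, the 15 highest and 15 lowest ratios past the size rule that reach 5 CPM, leaving out predicted genes, and up to 4 members per list with the largest ratio in size; the genes beside Mdm2 were chosen by position, and the result of 1 gene is not reported here. The comparison, its members and the lists were chosen with earlier results of these data known. Medians per chromosome on day 2 and against control, per 10 Mb stretch, and promoter letters were added after the data were seen. Alternatives were scaling by library totals, by ERCC reads or by size factors of DESeq2 1.42.0, pseudocounts of 1 and 0.1, no floor or a floor of 5 CPM, the authors' log2 fold change, and removal of a lowess trend (fraction 0.3) on transcript length.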

Additional observations from a re-analysis of the deposited data

Results flagged for a closer look

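Of the genes past the size rule at day 0, 15 of the 406 higher and 15 of the 293 lower ones passed it in the other direction at day 2. Among all 12316 genes tested at day 0, 957 were lower and 1463 higher at day 2, so such turns were no more frequent than calls among genes at large. The 17 genes with such a turn that reached 5 CPM in either knockdown line on each of the days are given with their log2 ratio of shMaf1 to shBrf1. Predicted and unnamed genes were left out. With 1 library per group the difference between the days was not tested. Interferon-induced genes went from lower to higher in shMaf1, with Gvin1 from -1.07 to 3.86, Iigp1 from -1.51 to 2.33 and Oas1a from -1.07 to 3.29. Genes of fibrillin microfibrils, growth factor release and matrix cleavage did so too, with Fbn1 from -1.13 to 1.32, Ltbp1 from -1.04 to 1.04, Mmp28 from -1.09 to 1.01 and Pappa from -1.17 to 1.75. So did Samd4 from -1.06 to 1.25 and Sorcs2 from -1.12 to 3.29. The mitotic list as a whole kept a median above 0 at day 2 (0.20). Single genes of cell division and chromatin went from higher to lower, with Birc5 from 1.09 to -1.07 and Hmgb3 from 1.03 to -1.10. The remaining genes went the same way, with Arxes2 from 1.37 to -2.64, Il13ra1 from 1.01 to -1.25, Lbp from 1.88 to -1.02, Mt2 from 1.11 to -1.24, Pcdhgb8 from 1.14 to -3.35 and Wnt4 from 1.07 to -1.43. Among these, Lbp, which encodes lipopolysaccharide binding protein, stood at 6.54 CPM in shMaf1 and 1.41 CPM in shBrf1 at day 0, and at 24.2 and 49.5 CPM at day 2. Iigp1 stood at 28.6 and 82.1 CPM at day 0 and at 34.0 and 6.36 CPM at day 2, so the fall in shBrf1 was the larger part of its turn. Iigp1 fell in the other conditions too, from 77.4 to 12.65 CPM in control and from 57.7 to 2.175 CPM in ML-60218. Oas1a fell from 20.98 to 1.89 CPM in control and from 13.9 to 0.305 CPM in ML-60218. Gvin1 fell from 97.1 to 3.68 CPM in control and from 62.2 to 1.22 CPM in ML-60218. Each day 2 ratio rests on the shBrf1 library with 7.8% ribosomal RNA reads, whose part was not tested.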

How the results depend on the processing

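The count of genes higher in shMaf1 ranged from 297 (floor of 5 CPM) to 525 (the authors' log2 fold change) around 406, and that of genes lower from 208 to 374 around 293, under the same settings. ERCC scaling gave 417 higher and 354 lower. Of the 97 named genes past the size rule, between 87 (floor of 5 CPM) and 97 remained past it in the same direction under the 9 settings. Over 1561 values of named genes, 1507 moved by less than their counting interval, 54 moved by more, and 0 of the genes past the size rule changed sign. These totals include the settings with no floor and with a floor of 5 CPM. Both leave the ratio of a gene unchanged, so its value could not move there. Of 368 list medians, 355 moved by less than 0.1 on the log2 scale and 12 by more, and 1 of those at 0.25 or more in size reversed: the skeletal muscle list, with 2 measured genes, went from 0.34 to -0.44 under a floor of 5 CPM, which leaves 1 gene. Removing the floor could not move a list median, as the measured members stayed the same. The median of all genes shifted by at most 0.05 in size, under ERCC scaling (-0.045). No paired analysis was possible because each condition has 1 library a day, and for the same reason no library could be left out. Depth limits the genes near 1 CPM or below in either library, whose intervals are wide, such as Dlg2 (25.0 to 762) and Fabp4.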
